A study of Mus musculus with 20 samples.

Results

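The replication-dependent histone genes of the mouse were followed through 20 RNA-seq libraries of embryonic heart, in mutants and controls of 3 Cre lines that delete floxed Kmt2d. Kmt2d, listed as Mll2 in the gene table, encodes an H3K4 methyltransferase. Of the 33495 genes in the table, 64 had a symbol that begins with Hist1h, Hist2h, Hist3h or Hist4h, and 54 of these reached 10 counts in at least 3 of the 20 libraries. The 54 members comprised 6 H1, 9 H2A, 17 H2B, 12 H3 and 10 H4 genes. The Hist1 cluster on chromosome 13 held 43 of them, the Hist2 cluster on chromosome 3 held 7, the Hist3 cluster on chromosome 11 held 3, and 1, Hist4h4, lay on chromosome 6. The filter removed 7 H2A and 3 H4 genes, so counts over the members do not describe every histone gene. Just inside it lay Hist1h2ba and Hist1h3h, with 10 counts in 3 libraries each, and just outside it lay Hist1h2ad, Hist1h2ao and Hist2h2aa1, with 10 counts in 2 libraries each.

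Replication-dependent histone genes supply the core histones H2A, H2B, H3 and H4 and the linker histone H1 that package newly replicated DNA. Most of them lack introns, lie side by side in clusters and are transcribed mainly in S phase, when the coactivator NPAT acts at the clusters. Their mRNAs are the exception among messenger RNAs in that they usually end in a short stem-loop, bound by the protein SLBP, in place of a poly(A) tail. Histone variants such as H3.3 and H2A.Z are encoded by separate genes that are expressed through the cell cycle and carry ordinary poly(A) tails.

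All embryos were of the C57BL/6 strain. Controls carried a Cre transgene or allele, 1 floxed Kmt2d allele beside a wild-type allele and the Rosa26 mTmG reporter (Cre; Kmt2d fl/+; mTmG/+), and mutants carried the same Cre and reporter with both Kmt2d alleles floxed (Cre; Kmt2d fl/fl; mTmG/+). Mesp1Cre gave 4 mutants and 4 controls of E9.0 whole heart. Mef2cAHF::Cre gave 3 of each from E11.5 right ventricle and outflow tract, and Tnnt2::Cre 3 of each from E11.5 whole heart. Mesp1Cre is active in mesodermal precursors, Mef2cAHF::Cre in the anterior heart field and its derivatives, and Tnnt2::Cre in cardiomyocytes, so each heart sample also held cells in which the Cre was not active. In bulk samples of this kind, fewer cells that express a gene and less RNA per cell cannot be told apart. The labels do not say whether a library came from 1 heart or from several. The p-values weigh each difference against the spread between these libraries, which may not be the spread between embryos.

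Total counts ranged from 21727258 to 45341870 per library. Kmt2d itself lay at 128 to 144 CPM (counts scaled to a common library total) in the Mesp1Cre mutants against 152 to 164 in their controls, and at 107 to 116 in the Tnnt2::Cre mutants against 119 to 159. These counts cover the whole gene, including exons outside the deleted part. In the Mef2cAHF::Cre line the libraries labelled mutant had 187 to 194 CPM and those labelled control 146 to 156, which goes against the labels. The titles and genotypes of these 6 libraries also disagree with the column names of the deposited table, which give each library the opposite genotype, whereas the library names in the line above those column names carry the same genotypes as the labels. Groups follow the labels here and are named as labelled. Read by the column names, the sign of each difference between mutant and control within this line turns and its p-value stays as it is. Comparisons with the other lines change in size and p-value, and are given both ways. By their Y-linked genes, all 4 Mesp1Cre mutants and 2 of 4 Mesp1Cre controls were male, as were 1 of 3 mutants and 2 of 3 controls of Tnnt2::Cre. In the Mef2cAHF::Cre line 0 of 3 libraries labelled mutant and 1 of 3 labelled control were male.

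The 3′ stem-loop and the promoters are shown first because they are what most of these genes share. A 16-base stem-loop, searched as GG, any 2 bases, CTTTT, any base, AG, any 2 bases and CC on the gene's own strand, lay within 150 bases of the annotated 3′ end in 27 of the 54 members (50%), against 43 of 33200 genes in the table (0.130%). These 43 genes include the 27 members. Several annotated gene models run far past the histone coding sequence. Searched over the whole span of the gene plus 150 bases, 50 members held such a stretch and 4 (Hist1h2an, Hist2h2be, Hist1h3g and Hist1h4a) did not, whereas 73 of 26719 other genes with a span no longer than the longest member held it (0.273%). The form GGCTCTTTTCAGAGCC was found at 16 members, all outside H4, and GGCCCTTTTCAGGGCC at 6, all H4. One stem-loop per histone type is printed below 5′ to 3′ with its mm9 position, the stem-loop in capitals and 5 flanking bases on each side.
Hist1h1e, chr13:23713646-23713671, minus strand: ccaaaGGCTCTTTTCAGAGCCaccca
Hist1h2ak, chr13:21845246-21845271, minus strand: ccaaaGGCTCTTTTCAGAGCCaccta
Hist1h2bb, chr13:23839067-23839092, plus strand: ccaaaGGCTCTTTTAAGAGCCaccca
Hist1h3c, chr13:23836911-23836936, minus strand: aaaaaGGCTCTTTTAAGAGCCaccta
Hist1h4d, chr13:23673814-23673839, plus strand: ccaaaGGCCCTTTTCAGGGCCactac

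The H1, H2A and H4 genes shown are the most abundant of their types. The H2B and H3 genes are shown for the form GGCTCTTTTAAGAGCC, found at 3 members.

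In the 300 bases from 250 before to 50 after the annotated start, CCAAT on either strand was present in 47 members (87.0%), against 37.8% of 33200 genes. TATAAA was present in 31 members (57.4%, against 15.6% of genes). The octamer ATTTGCAT, a binding sequence of the Pou2f1 (Oct-1) protein, was present in 14 members (25.9%, against 2.35%), of which 5 were H2A and 9 were H2B genes. The letters AAACACA, known from H1 promoters, were present in 10 members (18.5%, against 7.59%), and 5 of these were among the 6 H1 genes. A match to these letters is a description of the window and does not show that a factor binds there. Promoters of the most abundant member of each type are printed below in mm9, on the strand of the gene, with these 4 motifs in capitals on whichever strand they lie. For H2A the stretch between Hist1h2ak and Hist1h2bn is given, since these 2 genes are transcribed away from each other and share it.
Hist1h1e, chr13:23714322-23714621, minus strand: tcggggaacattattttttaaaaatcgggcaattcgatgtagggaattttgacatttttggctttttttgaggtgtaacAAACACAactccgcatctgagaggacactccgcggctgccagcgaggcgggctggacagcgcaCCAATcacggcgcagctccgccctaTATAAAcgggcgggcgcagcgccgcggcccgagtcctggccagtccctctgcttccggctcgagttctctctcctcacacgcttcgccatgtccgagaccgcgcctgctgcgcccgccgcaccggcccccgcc
Hist1h2ak to Hist1h2bn, chr13:21845697-21845991, plus strand: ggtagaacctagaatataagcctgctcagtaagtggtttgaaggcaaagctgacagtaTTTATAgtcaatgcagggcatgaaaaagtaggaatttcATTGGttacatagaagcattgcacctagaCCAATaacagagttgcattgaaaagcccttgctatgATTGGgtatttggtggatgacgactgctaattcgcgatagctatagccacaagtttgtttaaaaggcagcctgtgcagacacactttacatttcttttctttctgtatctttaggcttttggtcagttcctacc
Hist1h2bm, chr13:21813717-21814016, plus strand: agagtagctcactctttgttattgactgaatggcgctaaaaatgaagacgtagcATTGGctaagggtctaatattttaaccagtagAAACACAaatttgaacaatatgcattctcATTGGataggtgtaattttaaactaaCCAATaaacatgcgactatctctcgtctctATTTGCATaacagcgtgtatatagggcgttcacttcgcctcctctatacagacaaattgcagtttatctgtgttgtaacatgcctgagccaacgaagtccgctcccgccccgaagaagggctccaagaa
Hist1h3g, chr13:23627037-23627336, plus strand: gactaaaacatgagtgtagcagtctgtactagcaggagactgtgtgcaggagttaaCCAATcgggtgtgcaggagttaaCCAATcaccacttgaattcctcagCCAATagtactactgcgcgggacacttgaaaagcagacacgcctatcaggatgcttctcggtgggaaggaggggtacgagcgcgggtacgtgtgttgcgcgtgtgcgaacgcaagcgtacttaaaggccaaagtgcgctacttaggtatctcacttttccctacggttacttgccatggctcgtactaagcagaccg
Hist1h4d, chr13:23673187-23673486, plus strand: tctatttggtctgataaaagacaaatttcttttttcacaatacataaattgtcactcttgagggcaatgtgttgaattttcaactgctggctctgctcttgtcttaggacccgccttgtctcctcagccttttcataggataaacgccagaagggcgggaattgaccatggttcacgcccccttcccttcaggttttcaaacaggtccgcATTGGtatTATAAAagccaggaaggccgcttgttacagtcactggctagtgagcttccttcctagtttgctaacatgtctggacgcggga

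The Hist1h1e promoter carried AAACACA farthest from the start, then a match to CCAAT, and a match to TATAAA nearest to the start. The Hist1h2bm promoter carried the octamer, a match to AAACACA and 3 matches to CCAAT, and the Hist1h3g promoter carried 3 matches to CCAAT and no TATAAA. Pairs of members transcribed away from each other were frequent, with 9 such neighbors. Of these, 8 paired an H2A with an H2B gene, with 172 to 295 bases between them, and 1 paired Hist1h2bh with Hist1h3f over 607 bases.

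Histone genes of 1 type are near copies of each other, which limits what a read can be assigned to. In 22 of the 54 members at least 50% of the exonic bases were matched elsewhere in the genome at 98% identity or more over at least 100 bases. These included 11 of the 12 H3 genes, and for Hist1h3g the share was 84.6%. By contrast no H1 gene had such a copy, and neither did Hist1h2ak, Hist1h2bm or Hist1h4d. The others were 5 of 9 H2A, 5 of 17 H2B and 1 of 10 H4 genes, among them Hist1h2bl with a share of 100%. How reads that fit several places were counted is not given in the sources used here. Values of single genes with such copies are therefore uncertain, above all those of H3. Exons of 4 members, of which Hist2h3c1 is also among the 22, overlapped exons of a different gene. Hist3h2a overlapped Trim17, Hist1h2be overlapped Gm11398 and Hist2h3c1 overlapped Hist2h2aa1 on the same strand, and Hist1h2bm overlapped Hist1h2aj on the other. The use of strand in counting is not given either, so reads of Hist1h2bm and Hist1h2aj cannot be told apart.

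A few members supplied most of the signal. Levels of different genes are compared here only as FPKM, which is per length. Averaged over the 20 libraries, Hist1h4d had the highest level at 194 FPKM, followed by Hist1h1e at 175, Hist1h2bm at 112, Hist1h2bl at 73.5 and Hist1h1b at 60.8. The most abundant H2A gene was Hist1h2ak at 27.3 FPKM and the most abundant H3 gene was Hist1h3g at 15.5 FPKM. In counts, Hist1h4d made up 84.1% of all H4 reads and Hist1h1e 55.7% of all H1 reads, averaged over libraries, while the H3 reads were spread more evenly, with 21.6% for Hist1h3g. It took 11 members to reach 80% of all member counts.

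**Figure D1:**
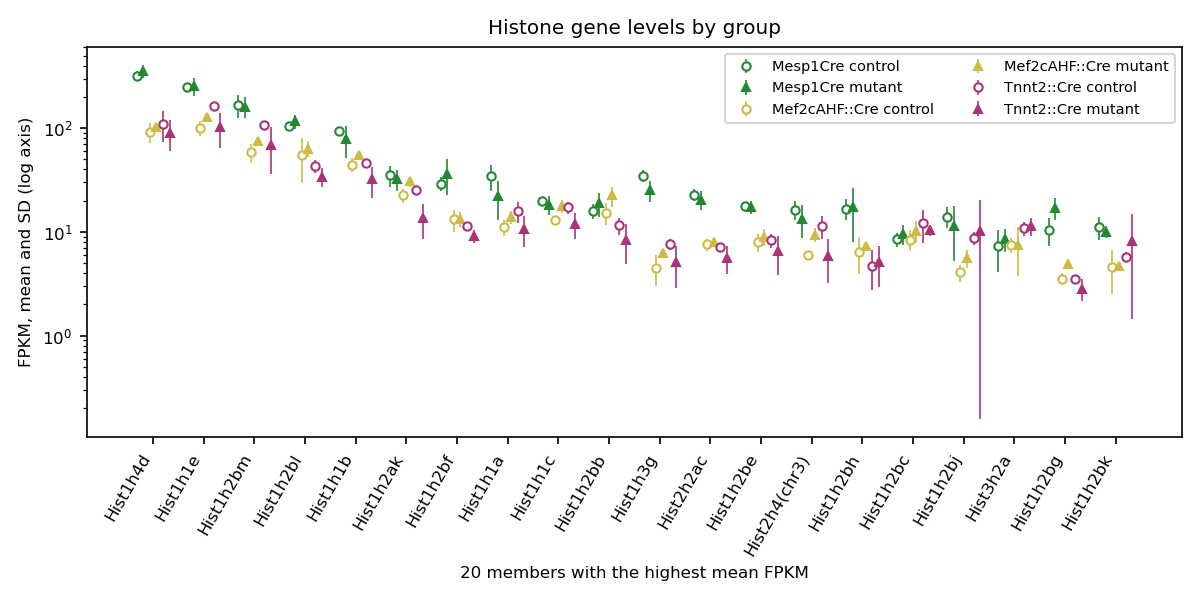
FPKM of the 20 members with the highest mean level, as the mean and SD of each group of 3 or 4 libraries on a log axis, with open circles for controls and filled triangles for mutants, colored by Cre line. Hist1h4d reached 320 FPKM in the Mesp1Cre controls and 109 in the Tnnt2::Cre controls, and the E9.0 hearts had higher values than the E11.5 tissues for most of the genes shown.

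The members took 0.0676% to 0.0999% of all counts in the 8 Mesp1Cre libraries and 0.0218% to 0.0463% in the 12 E11.5 libraries, without overlap. The lines differ in stage, tissue and sequencing lanes, and these cannot be told apart. The gap was wide for Hist1h3g, with 34.6 FPKM in the Mesp1Cre controls, 7.60 in the Tnnt2::Cre controls and 4.49 in the libraries labelled control of Mef2cAHF::Cre. Hist1h4d had 320, 109 and 91.6 FPKM in the same order, and Hist1h2ak 35.2, 25.3 and 22.6.

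The first question was whether histone genes differ between Mesp1Cre mutants and controls, in which Kmt2d is deleted earliest and most broadly. Of the 50 members tested, 1 fell and 0 rose at an adjusted p of 0.05 (edgeR quasi-likelihood test, Benjamini-Hochberg adjustment over 15883 genes), against 5.29% of all genes that fell and 6.17% that rose. At an unadjusted p of 0.05, 3 members were lower (13.6% of all genes) and 5 higher (13.3% of all genes), and DESeq2 called 2 lower and 2 higher at an adjusted p of 0.05 (8.13% and 8.33% of all genes). The groups did not overlap in 2 members with higher mutants (9.02% of all genes), Hist1h2bp and Hist1h4k, and in 2 with lower mutants (8.7% of all genes), Hist1h2ac and Hist1h3i. The median log2 fold change over the members was -0.00, with 25 members below 0 (50.2% of all genes) and 25 above. By type the medians were -0.20 for H1, -0.11 for H2A, -0.01 for H2B, 0.24 for H3 and 0.04 for H4.

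The gene that fell was Hist1h3g, an H3 gene, with 19.6, 18.5, 19.4 and 14.5 CPM in the 4 controls and 7.96, 14.6, 12.4 and 12.0 CPM in the 4 mutants. Mutant replicate 2, at 14.6, lay just above control replicate 4, at 14.5, so the groups touched. The log2 fold change was -0.62 ± 0.18 (SE, adjusted p = 0.048). This call was lost without any 1 of 6 of the 8 libraries (each one but mutant replicate 2 and control replicate 4), with sex or erythroid level as a covariate and with scaling by library totals. It was also lost with a block by replicate number (adjusted p = 0.070), a block by the code in the library names (adjusted p = 0.076) and in a fit of all 6 groups (adjusted p = 0.081). The call held with DESeq2 (adjusted p = 0.014) and with DESeq2 size factors. It also held with all genes of at least 1 count and a filter of 10 counts in every library. Hist3h2ba (log2 fold change 1.31 ± 0.42, SE, adjusted p = 0.062) and Hist1h2bp (1.08 ± 0.38, adjusted p = 0.083) did not pass in the test above. DESeq2, library totals and the filter of 10 counts in every library each called both higher, and DESeq2 called Hist1h1a lower. Without mutant replicate 2, 3 members were called lower, against 6.24% of all genes: Hist1h3g and the H1 genes Hist1h1a and Hist1h1b. That library had the highest summed histone level of the 8.

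The most abundant members were close in level between the groups. Hist1h1e, a linker histone gene, had 195 ± 12.5 CPM (SD, n = 4) in controls and 182 ± 37.4 in mutants, a log2 fold change of -0.11 ± 0.12 (SE). Hist1h4d had 143 ± 16.6 and 143 ± 22.9 CPM, with a log2 fold change of 0.00 ± 0.12 (SE). Hist1h2bm had 72.3 ± 17.8 and 62.5 ± 15.4 CPM, and Hist1h2ak 14.7 ± 3.61 and 12.0 ± 2.91. All of these groups overlapped.

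Members whose mRNAs can also carry a poly(A) tail and members known from testis did not pass the test either. Hist1h1c, a linker histone gene also expressed outside S phase, had 33.0 ± 1.09 CPM in controls and 27.0 ± 5.67 in mutants, with a log2 fold change of -0.29 ± 0.14 (SE, adjusted p = 0.21). Hist2h2be had 5.82 ± 1.06 and 8.22 ± 1.15 CPM (log2 fold change 0.50 ± 0.21, adjusted p = 0.14), and Hist1h2bc 4.05 ± 0.600 and 4.08 ± 0.910 CPM. Of the testis genes, Hist1h1t stayed at 0.344 to 0.927 CPM in all 8 libraries. Hist1h2ba was too low to be tested, with 79 and 28 counts in control replicates 1 and 3 and 0 to 9 counts in the other 6 libraries.

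**Figure D2:**
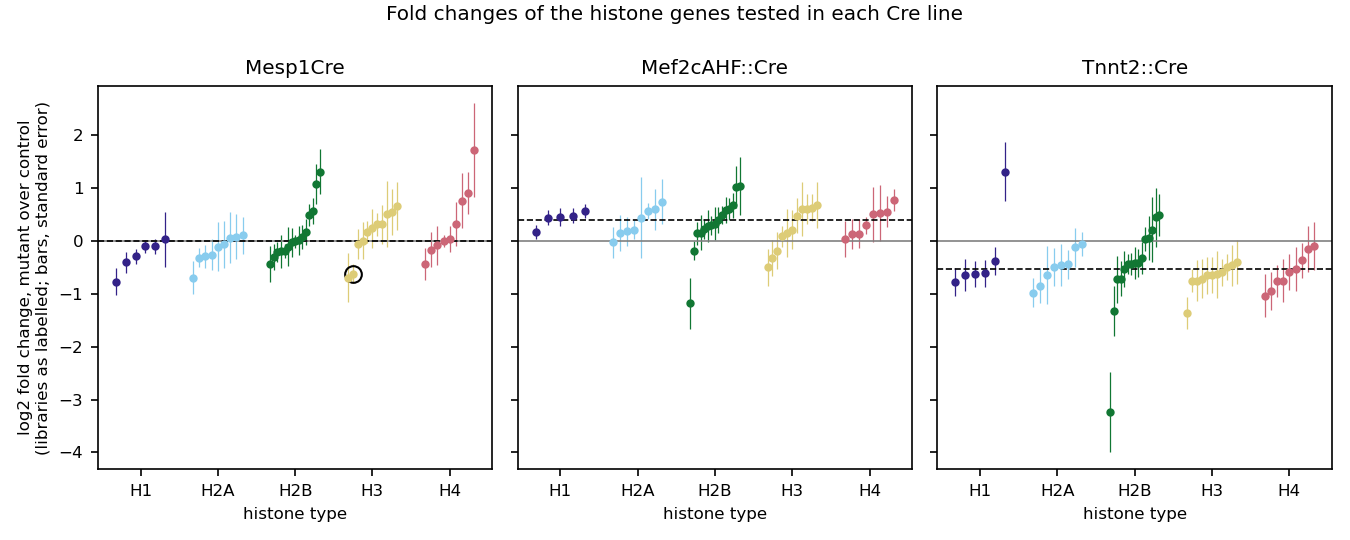
Log2 fold change, mutant over control by the labels, of every member tested in each Cre line, ordered within its histone type, with the standard error as a bar. The dashed line is the median over the members, at -0.00 in the Mesp1Cre panel, 0.40 in that of Mef2cAHF::Cre and -0.53 in that of Tnnt2::Cre, and the black ring marks Hist1h3g, the single member past the threshold. For Mef2cAHF::Cre the column names would mirror the panel about 0.

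The second comparison asked the same in the right ventricle and outflow tract after deletion by Mef2cAHF::Cre. By the labels, 41 of the 47 members tested had a log2 fold change above 0, against 48.8% of all 16920 genes, and the median was 0.40, against -0.01 for all genes. By the column names of the table, 41 members would lie below 0 and the median would be -0.40. None of the 47 passed an adjusted p of 0.05 (edgeR), against 1.81% of all genes called higher and 1.04% called lower in the libraries labelled mutant. At an unadjusted p of 0.05, 12 members were higher (9.66% of all genes) and 1 was lower (8.29% of all genes). DESeq2 called 4 higher at an adjusted p of 0.05 (3.85% of all genes), namely Hist1h1b, Hist1h1c, Hist1h1e and Hist1h2ak. In 13 members the 3 libraries labelled mutant all lay above the 3 labelled control, against 12.5% of all genes. The 13 included 4 of the 5 H1 genes tested, 5 of 15 H2B, 2 of 8 H2A, 1 of 11 H3 and 1 of 8 H4.

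Of the linker histone genes tested, Hist1h1d alone overlapped between the groups. Hist1h1e had 68.1, 59.0 and 89.8 CPM in the libraries labelled control and 108, 100 and 93.6 in those labelled mutant, so that the groups were apart by a small gap. Its log2 fold change was 0.48 ± 0.14 (SE, adjusted p = 0.11). Hist1h1c had 18.8, 18.9 and 21.0 CPM against 30.8, 32.7 and 23.6, and with a log2 fold change of 0.57 ± 0.13 (SE) it had an adjusted p of 0.051, just outside the threshold. Hist1h1c did pass with DESeq2 (adjusted p = 0.0028). In edgeR it passed with all genes of at least 1 count (adjusted p = 0.0017) and without mutant replicate 3 (adjusted p = 0.030). Among the core histones, Hist1h2ak had 7.36, 7.79 and 10.4 CPM in the libraries labelled control and 12.6, 14.1 and 11.1 in those labelled mutant, also without overlap (log2 fold change 0.57 ± 0.16, adjusted p = 0.093).

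In each of these genes control replicate 3 was the highest library labelled control. Without it, 5 members were called higher, against 1.22% of all genes: Hist1h1e, Hist1h1b, Hist1h2ak, Hist1h2bm and Hist1h4d. The fit of all genes with at least 1 count called 6 members higher, against 2.51% of all genes: Hist1h1b, Hist1h1c, Hist1h1e, Hist1h2ak, Hist1h2bb and Hist1h2bm. The remaining leading genes overlapped between the groups, with 23.0 ± 6.01 and 32.2 ± 3.03 CPM for Hist1h2bm, 37.3 ± 9.76 and 45.8 ± 3.59 for Hist1h4d, and 2.14 ± 0.830 and 3.25 ± 0.337 for Hist1h3g (SD, n = 3, labelled control first).

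The extremes were low in abundance. Hist1h2bp had the largest log2 fold change, 1.04 ± 0.54 (SE, adjusted p = 0.36), with 0.685 to 1.26 CPM in the libraries labelled control and 3.32, 2.07 and 0.609 in those labelled mutant. With the erythroid level as a covariate the value was -0.055, and without 1 library it was 0.45 to 1.49. Hist3h2ba had the smallest, -1.18 ± 0.48 (SE, adjusted p = 0.24), with 0.733, 2.52 and 1.55 CPM against 0.401, 0.677 and 0.997. Both sets of values overlapped. Of the poly(A)-capable H2B genes, Hist1h2bc had 3.66 ± 0.934 and 4.83 ± 1.12 CPM and Hist2h2be 5.40 ± 0.619 and 4.75 ± 0.802, and Hist1h1t and Hist1h2ba were too low to be tested.

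The third comparison was that of whole hearts with Kmt2d deleted in cardiomyocytes by Tnnt2::Cre. Of the 49 members tested, 43 had a log2 fold change below 0, against 49.3% of all 17045 genes, and the median was -0.53, against 0.00 for all genes. None passed an adjusted p of 0.05 (edgeR), in a comparison in which 0.217% of all genes were called lower and 0.0763% higher. At an unadjusted p of 0.05, 13 members were lower (5.72% of all genes) and 1 was higher (6.21% of all genes). DESeq2 called 3 lower at an adjusted p of 0.05 (1.22% of all genes), namely Hist1h2bp, Hist1h2ak and Hist2h3b. In 12 members all 3 mutants lay below all 3 controls, against 7.97% of all genes, and in 0 members above, against 9.13%. All 8 H2A, 11 H3 and 9 H4 genes tested lay below 0, together with 5 of 6 H1 and 10 of 15 H2B genes. The median log2 fold change was -0.62 for H1, -0.47 for H2A, -0.42 for H2B, -0.65 for H3 and -0.58 for H4.

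The 3 mutants were far from alike. Hist1h1e had 122, 126 and 138 CPM in the controls and 113, 47.2 and 63.9 in mutant replicates 1, 2 and 3. The first mutant lay just under the controls and the other two far below them. The log2 fold change was -0.78 ± 0.27 (SE, adjusted p = 0.33). Hist1h2ak showed the same order, with 9.90, 9.80 and 11.4 CPM in the controls and 7.97, 3.47 and 4.33 in the mutants (log2 fold change -0.98 ± 0.28, adjusted p = 0.25). Hist1h2bm had 44.0, 46.5 and 47.5 CPM in the controls and 44.4, 13.9 and 25.6 in the mutants, so that mutant replicate 1 lay within the controls. Hist1h4d had 29.6, 52.1 and 63.1 CPM in the controls and 55.5, 27.7 and 28.7 in the mutants, so that mutant replicate 1 lay above control replicates 1 and 2 and the groups overlapped.

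Without mutant replicate 1 the median of the 49 members was -0.89 and 7 were called lower, against 3.32% of all genes: Hist1h1e, Hist1h1b, Hist1h1c, Hist1h2ak, Hist1h2bm, Hist1h2be and Hist2h3b. Leaving out mutant replicate 2 instead gave a median of -0.30 and 0 calls. Hist1h1c, which had 28.0 ± 4.31 CPM in controls and 18.1 ± 6.80 in mutants (SD, n = 3), overlapped between the groups, with 26.0 CPM in mutant replicate 1. Hist1h3g had 3.90 ± 0.527 and 2.48 ± 1.28 CPM.

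Hist1h2bp, an H2B gene, had the smallest log2 fold change, -3.24 ± 0.75 (SE, adjusted p = 0.15). Its controls had 0.448, 4.57 and 2.71 CPM and its mutants 0.214, 0.251 and 0.345, so the groups did not overlap but most of the difference came from control replicates 2 and 3. Without control replicate 1 it passed the test, at -3.75 ± 0.37 (SE, adjusted p = 0.024). With no library left out it passed under DESeq2, at -3.26 ± 0.62 (SE, adjusted p = 3.1e-05). It also passed in the edgeR fit of all 6 groups, at -3.24 ± 0.66 (SE, adjusted p = 0.028). The largest log2 fold change was that of the testis gene Hist1h1t, 1.31 ± 0.56 (SE, adjusted p = 0.41), at under 1 CPM in every library. Hist2h2be, with 4.18 ± 0.799 CPM in controls and 4.29 ± 1.00 in mutants, and Hist1h2bc, with 5.76 ± 2.14 and 4.59 ± 0.983, overlapped.

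Reads that were split among members of 1 type add up again in a sum, so the members were also summed by histone type in each library. Reads that were dropped, or counted at copies outside the members, are not restored by a sum. Since the counting of such reads is not given, the sums may still carry this limit, above all for H3 and H2A. In the Mesp1Cre line the sum over all members was 839 ± 61.5 CPM in controls and 774 ± 142 in mutants (SD, n = 4), and all 5 type sums overlapped, with ratios of mutant to control from 0.831 for H2A to 1.01 for H4. The 4 mutants had 635, 971, 755 and 734 CPM, and the 4 controls lay inside this range, from 767 to 892. In the Mef2cAHF::Cre line the libraries labelled control had 291, 268 and 388 CPM and those labelled mutant 440, 422 and 388, so the third library of each group gave nearly the same sum. H1 and H2A were apart between the groups, with ratios of 1.38 and 1.31, and the other 3 types overlapped. In the Tnnt2::Cre line the controls had 406, 449 and 497 CPM and the mutants 438, 194 and 266. The H1, H2A and H3 sums of all 3 mutants lay below those of all 3 controls, with ratios of 0.617, 0.647 and 0.622, and the H2B and H4 sums overlapped.

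**Figure D3:**
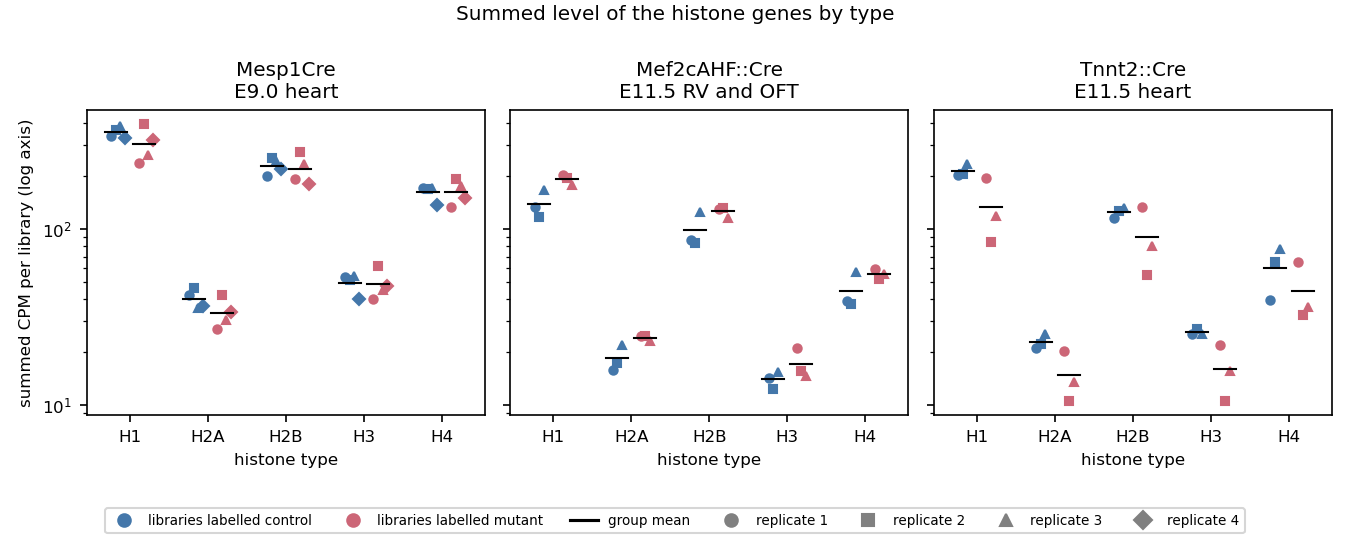
Summed CPM of the members of each histone type in every library, on a log axis, with the marker shape giving the replicate number and the black bar the group mean. Mutant replicate 1 of Tnnt2::Cre (circle) lies with the controls for H2B and H4 and just below them for the other types, and mutant replicates 2 and 3 lie lower, for example at 85.2 and 119 CPM for H1 against 204 to 237 in the controls.

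The level of red blood cell genes also differed between libraries. The erythroid list held 16 genes, of which 15 were in the table and tested in each line. In Tnnt2::Cre 0 of the 15 passed the test and all 15 lay below 0, against 49.3% of all genes. In Mef2cAHF::Cre 2 were higher in the libraries labelled mutant (1.81% of all genes) and 14 lay above 0 (48.8% of all genes). The mean log2 CPM of the list was 9.59 in Tnnt2::Cre mutant replicate 1 and 6.98 and 8.03 in mutant replicates 2 and 3, against 9.15 to 9.86 in the controls. In the Mef2cAHF::Cre line it was 7.36 to 8.32 in the libraries labelled mutant and 5.85 to 7.52 in those labelled control. The summed level of the list ranged from 18886 to 126827 CPM in the Tnnt2::Cre mutants and from 99223 to 155504 in the controls, and from 25993 to 49239 and 7616 to 33247 CPM in the libraries labelled mutant and labelled control. No gene of the list was at 0 throughout a line. With the erythroid level as a covariate the median log2 fold change of the members was -0.16 in place of -0.53 for Tnnt2::Cre, and 0.11 in place of 0.40 for Mef2cAHF::Cre, with 0 members called in either. All genes called under this covariate were 0.575% lower and 0.106% higher for Tnnt2::Cre, and 0.579% lower and 0.975% higher for Mef2cAHF::Cre. In the Mesp1Cre line 5 of the 15 erythroid genes fell and 1 rose in mutants, against 5.29% and 6.17% of all genes. The summed level of the list was 2457 to 8212 CPM in mutants and 5843 to 18667 in controls. The histone median in this line was -0.00, and 0.06 with the erythroid level as a covariate. Erythroid level and genotype went together in part, so the fits with this covariate cannot tell them apart. The part of blood cells in the histone values was not tested further.

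**Figure D4:**
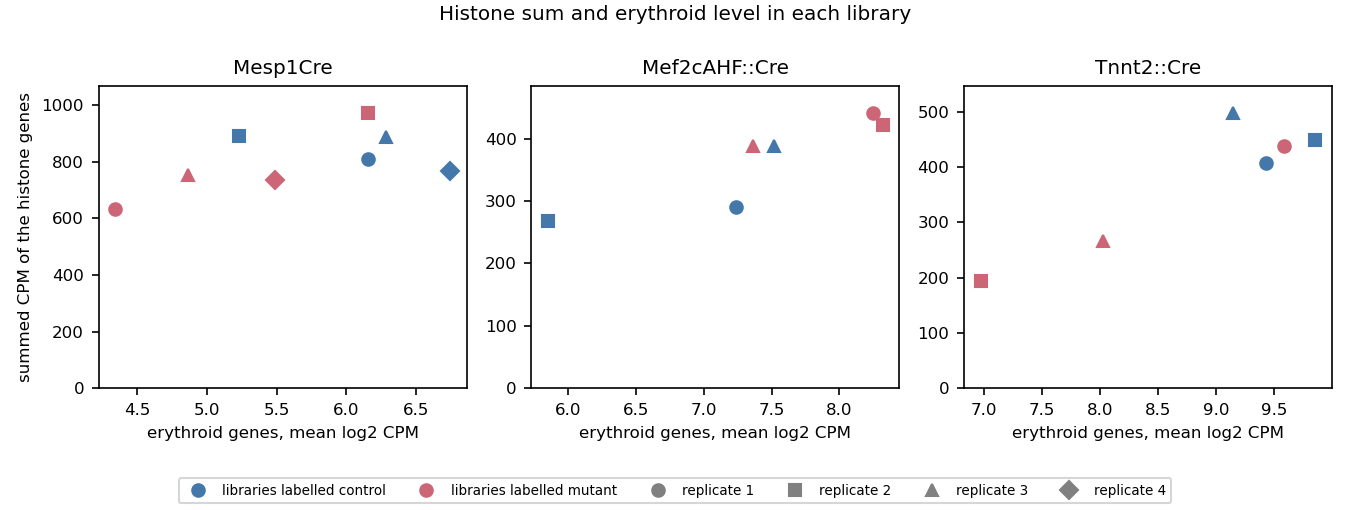
Summed CPM of the histone members in each library against the mean log2 CPM of the erythroid genes, for each Cre line, with colors for the labelled genotype and marker shapes for the replicate number. In the Tnnt2::Cre panel mutant replicates 2 and 3 have both the lowest erythroid level and the lowest histone sum, at 194 and 266 CPM, and mutant replicate 1 lies among the controls on both axes.

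In the Tnnt2::Cre line none of the 13 cardiomyocyte, 8 endothelial, 8 macrophage or 8 epicardial and mesenchymal genes passed the test. Of all genes, 0.217% were called lower and 0.0763% higher there. In the Mef2cAHF::Cre line 1 cardiomyocyte and 1 endothelial gene were higher in the libraries labelled mutant (1.81% of all genes). Of the 13 cardiomyocyte genes 12 lay above 0 (48.8% of all genes), with a median of 0.24. In the Mesp1Cre line 1 cardiomyocyte gene rose and 2 fell, 3 endothelial genes rose, and 1 macrophage and 1 epicardial and mesenchymal gene fell. Of all genes in this line, 6.17% rose and 5.29% fell. Cardiomyocyte markers were high in every library, at 28261 CPM or more in sum, as the heart label asks.

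Histone supply is tied to DNA replication, so the genes of S phase were set beside the histones. In Mesp1Cre mutants 15 of 25 S-phase genes fell, against 5.29% of all genes, and 0 rose. All 25 had a log2 fold change below 0, and their median was -0.45, while the median of the 50 histone members was -0.00. With the erythroid level as a covariate 2 of the 25 fell, 23 lay below 0 and the median was -0.36. With sex as a covariate 9 fell and the median was -0.47. Scaling by library totals gave 8 that fell, and leaving out 1 library gave 9 to 17. The 17 arose without mutant replicate 2, where 6.24% of all genes fell. For the other settings the share of all genes is not given here, so their counts cannot be set against all genes. In the same libraries 12 of the 15 erythroid genes lay below 0 (50.2% of all genes), with a median of -1.13, and 4 of 4 mutants were male against 2 of 4 controls. In Tnnt2::Cre 0 of 25 passed, 24 were below 0 (49.3% of all genes) and the median was -0.14, which is smaller in size than the histone median of -0.53. That histone median was -0.16 with the erythroid level as a covariate and -0.89 to -0.30 without 1 library. S-phase values under these settings are not given for this line, so the 2 medians are compared only in the fit without covariates. In the Mef2cAHF::Cre line 0 of 25 passed and the median was 0.07. The mitosis list of 12 genes had 1 fall in Mesp1Cre mutants (5.29% of all genes) and no call in the other lines. Its medians were -0.09, -0.03 and -0.15 in the order of Mesp1Cre, Mef2cAHF::Cre and Tnnt2::Cre.

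**Figure D5:**
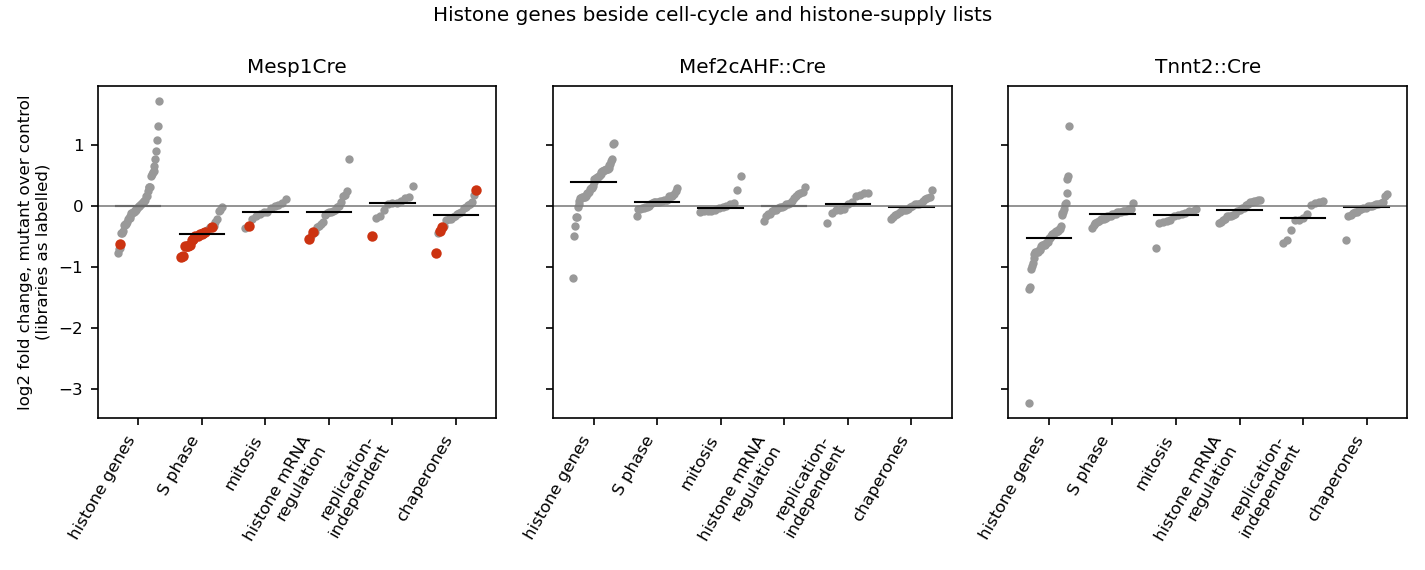
Log2 fold changes, mutant over control by the labels, of the histone members and of 5 gene lists in each Cre line, with red points for genes past the adjusted threshold and black bars for the median. In the Mesp1Cre panel the S-phase genes lie below 0 with 15 red points and the histone members spread around 0 with 1. In the Tnnt2::Cre panel the histone median of -0.53, from the fit without covariates, is the lowest of the 6 medians.

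Among the 21 genes that act in histone gene transcription or histone mRNA processing and decay, 2 fell in Mesp1Cre mutants and 0 rose, with a median of -0.10. Of all genes, 5.29% fell and 6.17% rose. Slbp, which encodes the stem-loop binding protein, had 54.2 ± 4.30 CPM in controls and 37.2 ± 4.2 in mutants (SD, n = 4), with no overlap and a log2 fold change of -0.54 ± 0.11 (SE, adjusted p = 0.0081). Cdk2, the kinase that with cyclin E activates NPAT, fell from 21.1 ± 1.66 to 15.7 ± 1.80 CPM (log2 fold change -0.43 ± 0.13, adjusted p = 0.047). Npat, the transcriptional coactivator, had 85.0 ± 5.39 and 83.8 ± 4.84 CPM. None of the 21 passed in the other lines. There Slbp had 43.9 ± 6.67 CPM in the libraries labelled control and 54.5 ± 1.12 in those labelled mutant of Mef2cAHF::Cre, and 85.1 ± 10.8 and 73.8 ± 21.3 in Tnnt2::Cre controls and mutants. Npat had 77.2 ± 3.58 and 78.8 ± 1.51, and 60.4 ± 1.18 and 61.3 ± 0.396 CPM.

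Of 14 replication-independent histone genes, 13 were in the table and 11 were tested, and 1 fell in Mesp1Cre mutants (5.29% of all genes). This was H2afz, which encodes the variant H2A.Z, at 593 ± 24.7 CPM in controls and 421 ± 82.0 in mutants, without overlap (log2 fold change -0.49 ± 0.11, adjusted p = 0.016). H3f3a and H3f3b, both of which encode H3.3, did not pass, with 183 ± 14.3 and 160 ± 10.4 CPM for H3f3a and 146 ± 14.4 and 160 ± 14.6 for H3f3b. No gene of this list passed in the other 2 lines. In Tnnt2::Cre, H2afz had 291 ± 23.3 and 248 ± 62.4 CPM, H3f3a 227 ± 15.3 and 195 ± 45.6, and H3f3b 178 ± 15.8 and 185 ± 13.2. In Mef2cAHF::Cre, H2afz had 312 ± 58.8 and 326 ± 12.3 CPM, H3f3a 163 ± 13.1 and 185 ± 6.84, and H3f3b 150 ± 14.9 and 138 ± 4.14, labelled control first. The median log2 fold change of the 11 genes was 0.05, 0.03 and -0.20 in Mesp1Cre, Mef2cAHF::Cre and Tnnt2::Cre.

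Histone chaperones carry new histones to DNA. Of 20 chaperone genes 3 fell and 1 rose in Mesp1Cre mutants, against 5.29% and 6.17% of all genes, with a median of -0.15. Asf1b, which hands H3 and H4 to assembly factors, fell from 14.1 ± 1.36 to 8.25 ± 0.560 CPM (log2 fold change -0.77 ± 0.15, adjusted p = 0.0066). Nasp, which keeps a pool of soluble H3 and H4, fell from 345 ± 13.9 to 259 ± 45.3 CPM (log2 fold change -0.41 ± 0.11, adjusted p = 0.025). Supt16h, a FACT subunit, fell from 237 ± 12.1 to 187 ± 16.8 CPM (log2 fold change -0.34 ± 0.08, adjusted p = 0.016), and Rbbp7, a histone-binding WD40 protein, rose from 259 ± 14.7 to 312 ± 24.6 CPM (log2 fold change 0.27 ± 0.08, adjusted p = 0.039). In all 4 genes, which were named because they passed the test, the mutants and controls did not overlap. Of all genes, 8.7% lay apart with lower mutants and 9.02% with higher mutants. With the erythroid level as a covariate none of the 7 list genes named here as changed passed the test, and with sex as a covariate Slbp and Asf1b did. The shares of all genes called with these covariates are not given here for this line. Slbp, Asf1b and H2afz passed in each of the 8 fits without 1 library, whereas Cdk2 was lost in 7 of them, Nasp in 5, Rbbp7 in 5 and Supt16h in 2 (without mutant replicate 1 or 3). None of the 20 passed in the other lines, where the medians were -0.01 and -0.02.

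Whether the genotype effect differs between lines was tested as an interaction over all 20 libraries. Between Mesp1Cre and Tnnt2::Cre 1 of the 54 members differed, against 3.04% of 18391 genes. This was Hist1h2bp, with a difference of 4.30 ± 0.83 in log2 fold change (SE, adjusted p = 0.010), and its values are those given above for the 2 lines and 1.19 ± 0.113 against 2.52 ± 0.811 CPM in Mesp1Cre controls and mutants. Between Mef2cAHF::Cre by the labels and Tnnt2::Cre 4 members differed, against 3.19% of genes. The differences were 1.25 ± 0.32 for Hist1h1e (adjusted p = 0.033), 1.54 ± 0.38 for Hist1h2ak (adjusted p = 0.029), 1.20 ± 0.29 for Hist1h1c (adjusted p = 0.027) and 4.28 ± 0.89 for Hist1h2bp (adjusted p = 0.010). By the column names 0 members and 0 genes (0.0%) differed between these 2 lines in the edgeR test, and at an unadjusted p of 0.05 2 members did, against 2.57% of genes. Between Mesp1Cre and Mef2cAHF::Cre 2 members differed by the labels, against 11.3% of genes, namely Hist1h1c, by -0.88 ± 0.27 (adjusted p = 0.042), and Hist3h2ba, by 2.48 ± 0.67 (adjusted p = 0.020). By the column names 0 members differed at an adjusted p of 0.05 and 4 at an unadjusted one, against 1.63% and 16.2% of genes.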

How the data were processed

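RNA-seq was measured in 20 libraries of embryonic mouse heart. The authors aligned the reads to mm9 (TopHat2 2.0.8b in the submitters' processing notes) and deposited the raw counts per gene of every library. The paper's methods name featureCounts for the counting, whereas the name under which the values were deposited credits both counts and FPKM to USeq. Beside each count the authors deposited an FPKM made with USeq, which is the count divided by gene length and by the total of its library. Variance-corrected values in 20 further columns were not used. The labels name an amplification from total RNA with random hexamers, the paper's methods a TruSeq kit, and whether poly(A) RNA was selected is not given in the sources used here. Levels of mRNAs without a poly(A) tail could depend on that step. For Mesp1Cre the labels give E9.0, and the protocol text gives E11.5 for all embryos.

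Each line was fitted on its own with edgeR 4.0.16 in R 4.3.3 (filterByExpr, TMM scaling, quasi-likelihood F test), with Benjamini-Hochberg adjustment over all genes tested and a threshold of 0.05. DESeq2 1.42.0 served as an alternative. CPM values were scaled by TMM within a line and are not compared between lines. Standard errors are the log2 fold change divided by the square root of F. Differences between lines were tested in a fit of all 20 libraries in 6 groups. Type sums and FPKM levels were described without a test. Copies were searched with BLAST 2.17.0 in the mm9 genome, from which stem-loops and promoters were read. Fits were tested on simulated data. Alternatives were other scalings, filters, a replicate block, sex or erythroid level as a covariate, the 6-group fit and leaving out each library. No pair of libraries of a group agreed within sampling noise.

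Members were all symbols of the Hist1 to Hist4 clusters with 10 counts in 3 libraries. Named with values were the most abundant member of each type, members past the threshold (at most 6 in each direction), the extremes of a line without a call, the poly(A)-capable and testis members, and list genes past the threshold (at most 3 in each direction) with Slbp, Npat, H3f3a, H3f3b and H2afz. Members named from DESeq2, the other alternative fits, the fits without 1 library and the interactions were added as they passed the threshold there. Hist1h2bl, Hist1h1b, Hist1h4k, Hist1h2ac, Hist1h3i and the H2B and H3 genes shown for their stem-loop were named after their values were seen. The members and lists were chosen with earlier results of these data known.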

Additional observations from a re-analysis of the deposited data

Results flagged for a closer look

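In 4 libraries of a group a single value can stand apart from the other 3, and chance alone marks about 1 in 20 such groups. Among the 52 groups of 4 Mesp1Cre libraries examined, 3 did. Hist1h1c had 31.4 CPM in control replicate 3, against 33.4 to 33.7 in the other controls. Hist1h4d had 118 CPM in control replicate 4, against 151 to 152 in the others, and the H4 sum followed it, with 137 CPM in that library against 170 to 172. These values do not touch a call, since no H4 gene and no H1 gene passed the test in this line.

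The genotype effect differed between 2 lines, by an interaction test, for 5 members and 2 genes of the lists. Of all genes, 3.04% differed between Mesp1Cre and Tnnt2::Cre. By the labels, 3.19% differed between Mef2cAHF::Cre and Tnnt2::Cre and 11.3% between Mesp1Cre and Mef2cAHF::Cre. Hist1h2bp differed by 4.30 in log2 fold change between Mesp1Cre and Tnnt2::Cre and, by the labels, by 4.28 between Mef2cAHF::Cre and Tnnt2::Cre. Its level was under 5 CPM in every library. By the labels of Mef2cAHF::Cre, the effect in that line exceeded the effect in Tnnt2::Cre by 1.25 for Hist1h1e, by 1.54 for Hist1h2ak and by 1.20 for Hist1h1c. Against Mesp1Cre, the differences of Mesp1Cre minus Mef2cAHF::Cre were -0.88 for Hist1h1c, 2.48 for Hist3h2ba, -1.05 for Asf1b and -0.87 for Slbp. By the column names of the table none of the members differed between Mef2cAHF::Cre and either other line. For Asf1b and Slbp the values by the column names are not given here.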

How the results depend on the processing

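Counts of called members moved with the processing in each line. In Mesp1Cre, where 1 member was lower and 0 were higher, scaling by library totals gave 2 higher and 0 lower. DESeq2 gave 2 higher (8.33% of all genes) and 2 lower (8.13%). A filter of 10 counts in every library gave 2 higher. The 6-group fit gave 1 higher and 1 lower, the latter Hist1h1a in place of Hist1h3g. The replicate block, the block by the code in the library names, the sex covariate and the erythroid covariate each gave 0 lower. Leaving out 1 library gave 0 to 1 higher and 0 to 3 lower, the 3 without mutant replicate 2 (6.24% of all genes lower). In Mef2cAHF::Cre, where 0 were called, DESeq2 gave 4 higher (3.85% of all genes) and the fit of all genes with at least 1 count gave 6 (2.51%). The replicate block gave 1, and leaving out 1 library 0 to 5, the 5 without control replicate 3 (1.22%). The member median of 0.40 in this line was 0.27 with library totals, 0.28 with sex, 0.11 with the erythroid level as a covariate, and 0.26 to 0.54 without 1 library. In Tnnt2::Cre, where 0 were called, DESeq2 gave 3 lower (1.22% of all genes) and the 6-group fit 1. Leaving out 1 library gave 0 to 7, the 7 without mutant replicate 1 (3.32%). Shares of all genes under the other settings are not given here, so those counts cannot be set against all genes. With all genes of at least 1 count, 5 members differed between Mesp1Cre and Mef2cAHF::Cre (6.85% of genes) and 7 between Mef2cAHF::Cre and Tnnt2::Cre (2.73% of genes), by the labels. Library totals shifted the median of all genes by 0.16, -0.14 and 0.12 in Mesp1Cre, Mef2cAHF::Cre and Tnnt2::Cre, so the members of Mesp1Cre, at 0.15, stayed with all genes. Where a cause is not given, the cause was not tested.

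Some named genes changed sign. In Mesp1Cre, Hist1h1e was 0.050 with library totals and 0.035 with the erythroid covariate, Hist1h2bm 0.078 and Hist1h1t -0.29 with the sex covariate, and Npat 0.14 with library totals. Mesp1Cre Hist1h2bc was -0.0065 under the replicate block, -0.0084 under the block by name code, -0.0071 in the 6-group fit and -0.055 with the erythroid covariate. Mesp1Cre Hist1h4d was -0.00012 by DESeq2, -0.0012 with all genes of at least 1 count, -0.0039 with the block and -0.017 in the 6-group fit. Without 1 library, Hist1h1t ranged from -0.15 to 0.27, Hist1h2bc from -0.088 to 0.17, Hist1h4d from -0.081 to 0.10 and Npat from -0.061 to 0.027. In Mef2cAHF::Cre, H2afz was -0.060 with library totals, -0.072 with sex and -0.16 with the erythroid covariate, and -0.069 to 0.20 without 1 library. Hist1h2bp was -0.055 in place of 1.04 with the erythroid covariate, and Npat -0.11 with library totals and -0.0046 to 0.065 without 1 library. In Tnnt2::Cre the erythroid covariate gave 0.032 for H2afz, 0.060 for H3f3a, 0.0045 in place of -0.37 for Hist1h4d, 0.15 for Slbp and -0.19 for Hist2h2be, which ranged from -0.17 to 0.18 without 1 library.

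Replicate numbers were not used as pairs. Same-numbered Mesp1Cre mutants and controls share a code in their library names, whose meaning is not given, and blocks by number and by code were both fitted. Deviations of same-numbered libraries correlated by -0.03 to 0.09 in Mesp1Cre, -0.01 to 0.18 in Mef2cAHF::Cre and -0.04 to 0.06 in Tnnt2::Cre.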
